A study of Homo sapiens with 9 samples.

Results

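Polycomb repressors are chromatin complexes that keep developmental genes silent. A set of 10 of their subunit genes was followed here through the H3K4me3 mark at their own promoters: EZH1, EZH2, EED, SUZ12 and JARID2 of Polycomb repressive complex PRC2, and RING1, RNF2, BMI1, PCGF1 and CBX2 of PRC1. They were chosen by name, as 10 of the 20163 protein-coding genes annotated on hg19. A gene was counted as marked in a library that had a peak no farther than 1 kb from one of its GENCODE transcription starts, and the signal of its largest such peak was taken. Of the 10 genes, 9 had a peak in at least 2 libraries and were tested among 12037 protein-coding genes that met the same condition. CBX2 had a peak in a single library and was not tested.

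H3K4me3 is a histone modification found at the promoters of active genes, and CUT&RUN maps it by releasing antibody-bound chromatin with a tethered nuclease and sequencing the fragments. The cells were HEL, an established human erythroleukemia line with erythroid and megakaryocytic features, cultured in the same medium in every group. NTC cells (3 libraries) carried a non-targeting control guide, and METTL3-KO, METTL14-KO and WTAP-KO cells (2 libraries each) carried CRISPR-Cas9 guides against a subunit of the enzyme complex that writes N6-methyladenosine on mRNA. Guides and Cas9 came from lentiviral vectors, and the methods describe no isolation of single clones, so that unedited cells may remain in a knockout library. The question was whether promoter H3K4me3 depends on this enzyme complex. The labels do not say that replicates came from separate cultures, so p-values measure at most the spread between these libraries, which may be technical. Fewer cells with the mark and less mark per cell cannot be told apart in such bulk libraries.

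PRC2 places methyl groups on lysine 27 of histone H3. EZH1 and EZH2 are its alternative catalytic subunits, EED binds the finished mark, SUZ12 holds the core together, and JARID2 is an accessory subunit that helps to bring the complex to its sites. PRC1 attaches ubiquitin to histone H2A through RING1 or RNF2, its catalytic subunits. BMI1 and PCGF1 are alternative partners of these enzymes that define different forms of PRC1, and CBX2 reads the PRC2 mark. In blood cells BMI1 is known for sustaining stem cell self-renewal, and EZH2 is recurrently mutated in myeloid disease.

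Facts of the whole series set the scale for these genes. Promoter peaks were found at 46.8% to 47.9% of protein-coding genes in the NTC libraries, 33.5% to 34.6% in METTL3-KO, 13.2% to 21.1% in METTL14-KO and 11.4% to 12.9% in WTAP-KO. The sequencing depth is unknown, because the lists hold no fragment totals. The values are spike-in calibrated. From the steps between values, the lowest peak of a list was read as a stack of 12 to 14 fragments in NTC libraries and 15 to 47 in KO libraries. This reading assumes that 1 step is 1 fragment and that the lowest value sums 2 intervals of coverage. All listed peaks were at most 2000 bp wide, with 1307 NTC peaks of 1901 to 2000 bp and none beyond. The sources do not say what became of wider stretches. Of 11 erythroid and megakaryocytic marker genes, 10 had a peak in at least 1 NTC library (GATA1 2803 ± 173, SD, n = 3). HBG1 had none in NTC. Of 14 markers of T, B, epithelial, liver and fibroblast cells, 12 had no peak in any library, and the others, COL1A1 (NTC mean 2511) among them, had one in each NTC library but lacked it in KO. The targeted genes METTL3, METTL14 and WTAP had promoter peaks in 3, 3 and 2 NTC libraries and in 3, 2 and 3 KO libraries, which does not check the knockouts, since the mark at a start is no measure of an edit.

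The stretch just before a start carries the CpG pairs that H3K4me3 promoters are known for. In the 250 bp before the start of the annotation's canonical transcript, the 10 genes held 11 to 48 CpG, against a median of 18.0 over 19862 protein-coding promoters (quartiles 7 and 27) and of 22 over the 8468 of them whose gene was marked in all 3 NTC libraries. EED (11) and PCGF1 (12) had the fewest, JARID2 had 22, EZH1 26, RING1, RNF2 and SUZ12 34 each, BMI1 35, EZH2 38 and CBX2 48, which stood at the percentile 99.7 of all promoters. The letters GGGCGG of the GC box, searched on both strands, lay in 9 of the 10 stretches, all but that of EED, and in 59.2% of all promoters. The stretches of 4 genes are printed because they belong to the contrasting outcomes below: RING1 kept a peak in all 9 libraries, RNF2 had one in every NTC library and almost none in KO, and PCGF1 and EED had one at this start in KO libraries only. They were read from the hg19 genome, 5′ to 3′ on the gene's strand, with CG pairs in capitals and without bases that belong to an annotated exon of the gene.
RING1, chr6:33176027-33176276, plus strand: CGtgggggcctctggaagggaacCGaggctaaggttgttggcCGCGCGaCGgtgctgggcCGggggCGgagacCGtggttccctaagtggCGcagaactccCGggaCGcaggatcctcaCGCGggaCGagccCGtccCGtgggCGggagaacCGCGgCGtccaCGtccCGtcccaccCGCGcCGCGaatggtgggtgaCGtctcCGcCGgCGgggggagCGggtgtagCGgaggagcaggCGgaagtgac
RNF2, chr1:185014440-185014657, plus strand: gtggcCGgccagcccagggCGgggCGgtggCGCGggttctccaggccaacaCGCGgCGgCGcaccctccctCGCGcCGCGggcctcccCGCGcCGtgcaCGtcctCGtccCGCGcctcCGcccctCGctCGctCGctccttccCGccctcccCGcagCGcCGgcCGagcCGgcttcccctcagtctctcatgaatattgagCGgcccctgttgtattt
PCGF1, chr2:74734823-74735072, minus strand: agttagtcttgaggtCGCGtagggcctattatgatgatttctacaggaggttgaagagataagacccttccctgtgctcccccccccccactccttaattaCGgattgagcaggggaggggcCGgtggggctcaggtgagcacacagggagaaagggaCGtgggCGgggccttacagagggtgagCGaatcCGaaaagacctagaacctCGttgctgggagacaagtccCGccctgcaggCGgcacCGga
EED, chr11:85955545-85955794, plus strand: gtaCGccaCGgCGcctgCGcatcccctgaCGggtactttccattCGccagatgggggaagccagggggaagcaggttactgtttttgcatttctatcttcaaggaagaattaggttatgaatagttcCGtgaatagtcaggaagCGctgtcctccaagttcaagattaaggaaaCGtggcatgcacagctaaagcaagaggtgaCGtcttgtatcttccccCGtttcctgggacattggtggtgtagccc

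Across the 10 genes, the NTC libraries had promoter peaks at 9, 9 and 7 of them, METTL3-KO libraries at 7 and 9, METTL14-KO libraries at 4 and 4, and WTAP-KO libraries at 3 and 3. EED and RING1 were marked in all 9 libraries. RING1 also had the highest NTC signal of the set, 18502 ± 2293 (SD, n = 3), above 96.9% of the 8495 genes that every NTC library marked, while JARID2 with 2109 ± 665 was above 21.2% of them. Every KO library lay below every NTC library for EZH1, EZH2, JARID2, RING1 and RNF2, that is for 5 of the 9 genes tested, where 68.3% of all genes tested showed the same. PCGF1 was the only one of the 9 with every KO library above every NTC library. The share of all genes tested with that order was not counted. A stricter pattern, with a peak in every KO library and none in NTC, was found for 4.88% of them, and PCGF1 did not meet it.

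**Figure D1:**
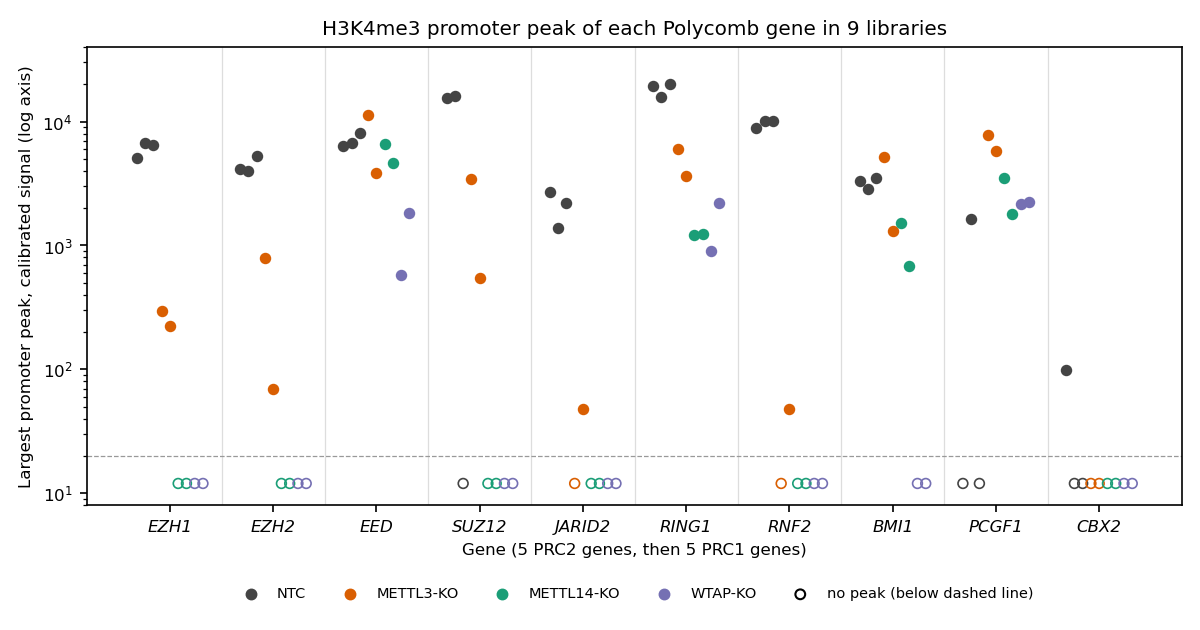
Signal of the largest H3K4me3 peak within 1 kb of any start of each gene (log axis, calibrated units), 1 point per library, coloured by group; open circles below the dashed line are libraries without a peak and have no value. RING1 keeps a peak in all 9 libraries between 909 and 20217, RNF2 falls from at least 8897 in NTC to a single KO peak of 48.1, and PCGF1 is higher in all 6 KO libraries.

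With all KO groups set against NTC, limma called 6 of the 9 genes lower (JARID2, EZH1, EZH2, RNF2, BMI1 and RING1) and 1 higher (PCGF1) at an adjusted p below 0.05. Over all genes tested, 73.0% were called lower and 14.3% higher, so the counts of these genes stood close to the background. Their median log2 change was -4.17, and that of all genes tested was -5.30. In METTL3-KO, 5 were called lower (background 60.9%) and 1 higher (14.0%). In METTL14-KO, 5 were called lower (68.8%) and none higher (8.38%), although PCGF1 had an unadjusted p of 0.0453. In WTAP-KO, 7 were called lower (69.7%) and none higher (6.81%), with PCGF1 at an unadjusted p of 0.0521. The medians of the 9 genes were -1.98 in METTL3-KO, -6.02 in METTL14-KO and -6.10 in WTAP-KO, beside -3.48, -5.57 and -5.97 for all genes. The 3 comparisons share the same NTC libraries and are not independent of each other. Changes are on the log2(signal + 30.1) scale, in which a library without a peak takes the value of log2(30.1). A change towards or from such libraries depends on this number and is no bound on the fold. Libraries without a peak also share the same value, so the lack of spread among them is set by this choice and was not measured. For genes with such libraries the SE and the limma p-values rest partly on it.

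**Figure D2:**
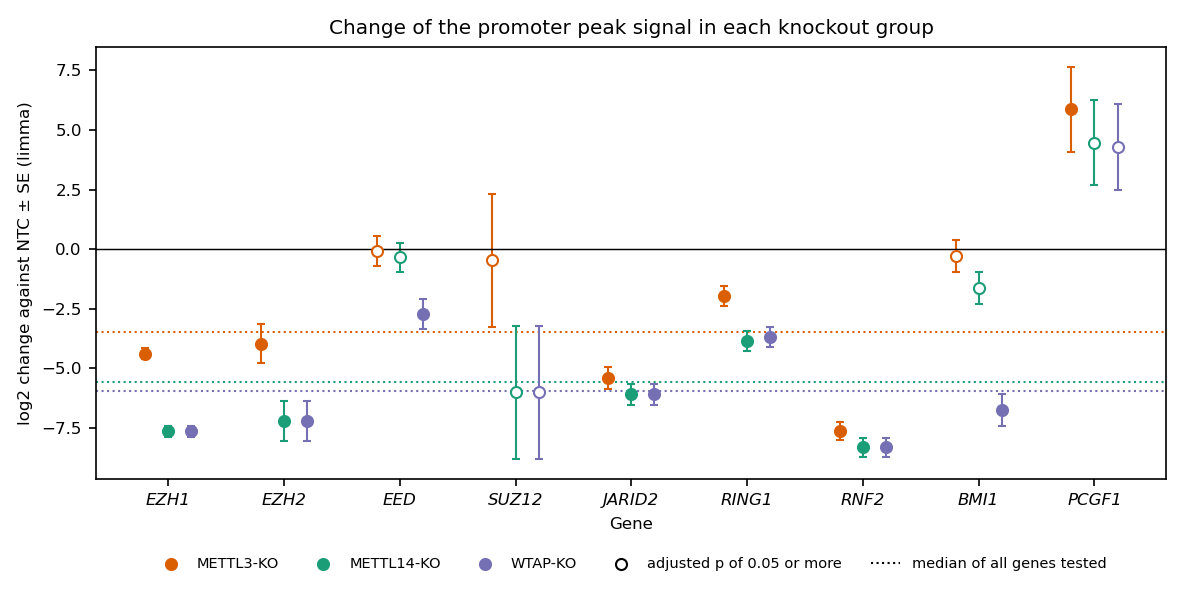
Change of the promoter peak signal against NTC on the log2(signal + 30.1) scale (limma estimate ± SE, 2 KO and 3 NTC libraries) for the 9 genes tested, by KO group. Filled points had an adjusted p below 0.05, and dotted lines are the medians of all 12037 genes tested. RNF2 lies lowest in all 3 KO groups, EED and BMI1 lie near 0 in METTL3-KO, and PCGF1 lies above 0 in all 3. SUZ12 in METTL3-KO lies at -0.47 ± 2.80, with NTC replicate 3 lacking a peak. Its METTL3-KO mean signal was 18.9% of the NTC mean.

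Among the PRC2 genes, both catalytic subunits lost most of their promoter signal. EZH1, on the minus strand of chr17 with its canonical start at 40897058, had signals of 5088, 6658 and 6475 in NTC, 298 and 222 in METTL3-KO and no peak in METTL14-KO or WTAP-KO. The METTL3-KO mean was 4.28% of the NTC mean, and the NTC and KO libraries did not overlap. In NTC the peaks ran from the start into intron 1 and were 977 to 1213 bp wide, and the METTL3-KO remnants of 191 and 399 bp lay in intron 1, downstream of the start. The change over all KO groups was -6.57 ± 0.17 (SE, adjusted p = 1.0e-07). EZH2 (chr7, minus strand, 148581383) had 4171, 4002 and 5316 in NTC, 797 and 69.4 in METTL3-KO and no peak in the other 4 libraries. Its main NTC peak did not cover the canonical start but lay 850 to 1776 bp downstream in intron 1, close to an alternative start at 148580601, and a weaker one of 233 to 1161 lay upstream. Both METTL3-KO remnants of EZH2 lay inside the intron 1 peak of NTC replicate 1. EZH2 changed by -6.14 ± 0.63 (adjusted p = 1.1e-04). A pseudogene of a U7 small nuclear RNA, RNU7-20P, starts 143 bp from an EZH2 start and shares none of its peaks.

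EED kept promoter peaks in every library, but at different starts in NTC and in KO. Its signals were 6341, 6720 and 8161 in NTC, 11360 and 3878 in METTL3-KO, 6552 and 4607 in METTL14-KO, and 576 and 1827 in WTAP-KO. METTL3-KO lay on both sides of the NTC range, METTL14-KO reached into it from below, and WTAP-KO lay below it. The change over all KO groups, -1.06 ± 0.48, was not called (adjusted p = 0.0788), and its direction turned to 1.54 ± 0.32 (0.00457) after the libraries were centred on the 665 genes marked in all 9 of them. It was called lower without METTL3-KO replicate 1 (-1.31, adjusted p = 0.0348) or WTAP-KO replicate 2 (-1.33, 0.0271), and when peaks under the median signal of NTC peaks were dropped (-2.77, 6.9e-04). WTAP-KO alone was called lower (-2.73 ± 0.62, adjusted p = 0.00603), but higher at the canonical start alone (5.14 ± 0.65, 3.6e-04).

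The EED peaks behind the NTC values were 859 to 982 bp from the farthest upstream start (chr11, plus strand, 85912254). Relative to the canonical start at 85955795 they lay between positions -42682 and -41525. No NTC library had a peak within 1 kb of the canonical start, whereas all 6 KO libraries did, and in the METTL3-KO and METTL14-KO libraries that peak covered it. When the canonical start alone was counted, EED therefore turned from -1.06 to 6.82 ± 0.50 (adjusted p = 1.9e-05). Such a pattern, with a canonical-start peak in every KO library but none in NTC, was found for 5.37% of the 11290 genes tested there. Of the 9 Polycomb genes tested there, 2 had it, EED and PCGF1. The EED peaks of the METTL3-KO libraries, with smallest gaps of 233 and 203 bp between them, together spanned 2924 and 2936 bp, which is above the 2000 bp at which every list ends. The part of this width limit in the missing NTC peaks was not tested. A long non-coding RNA, ENSG00000288809, starts 77 bp from an EED start, and 6 libraries had a peak within 1 kb of both genes.

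SUZ12 (chr17, plus strand, 30264026) was split among the NTC libraries themselves. NTC replicates 1 and 2 had 15515 and 15973, NTC replicate 3 had no peak within 5 kb, METTL3-KO had 3416 and 547, and METTL14-KO and WTAP-KO had no peak within 1 kb. With such a spread between controls the change of -4.17 ± 2.17 was not called (adjusted p = 0.112). It was called without NTC replicate 3 (-7.18 ± 0.70, adjusted p = 3.1e-04), and with peaks over a start only (-4.44 ± 1.57, 0.0381). In NTC replicates 1 and 2 a peak of 858 and 952 bp over the start and a stronger one of 1406 and 1314 bp in intron 1 lay 215 and 270 bp apart, and each pair spanned 2479 and 2536 bp, again above 2000 bp. The part of the width limit in the empty NTC replicate 3 was not tested. The KO peaks, including weak METTL14-KO peaks of 125 and 738 that lay between 1 and 5 kb from the nearest start, all fell inside the intron 1 peak. SUZ12 has a partial pseudogene copy, SUZ12P1, on the same chromosome, and how reads matching both were placed is not given in the sources used here.

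JARID2 (chr6, plus strand, 15246300) had 2711, 1395 and 2221 in NTC and a single KO peak of 48.1, in METTL3-KO replicate 2. The groups did not overlap, and the change was -5.87 ± 0.35 (adjusted p = 5.5e-06). The NTC libraries differed in where the peaks lay: NTC replicate 1 had 1 peak of 1213 bp, 2838 to 4050 bp downstream in intron 1, while NTC replicates 2 and 3 had 6 peaks each within 5 kb, which in NTC replicate 3 ran over 5348 bp with gaps of at least 222 bp between them. At the canonical start alone the change was smaller, -3.67 ± 1.40 (adjusted p = 0.0448), since NTC replicate 1 had no peak there. The non-coding genes JARID2-AS1 and JARID2-DT each shared peaks with JARID2 in 3 libraries.

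**Figure D3:**
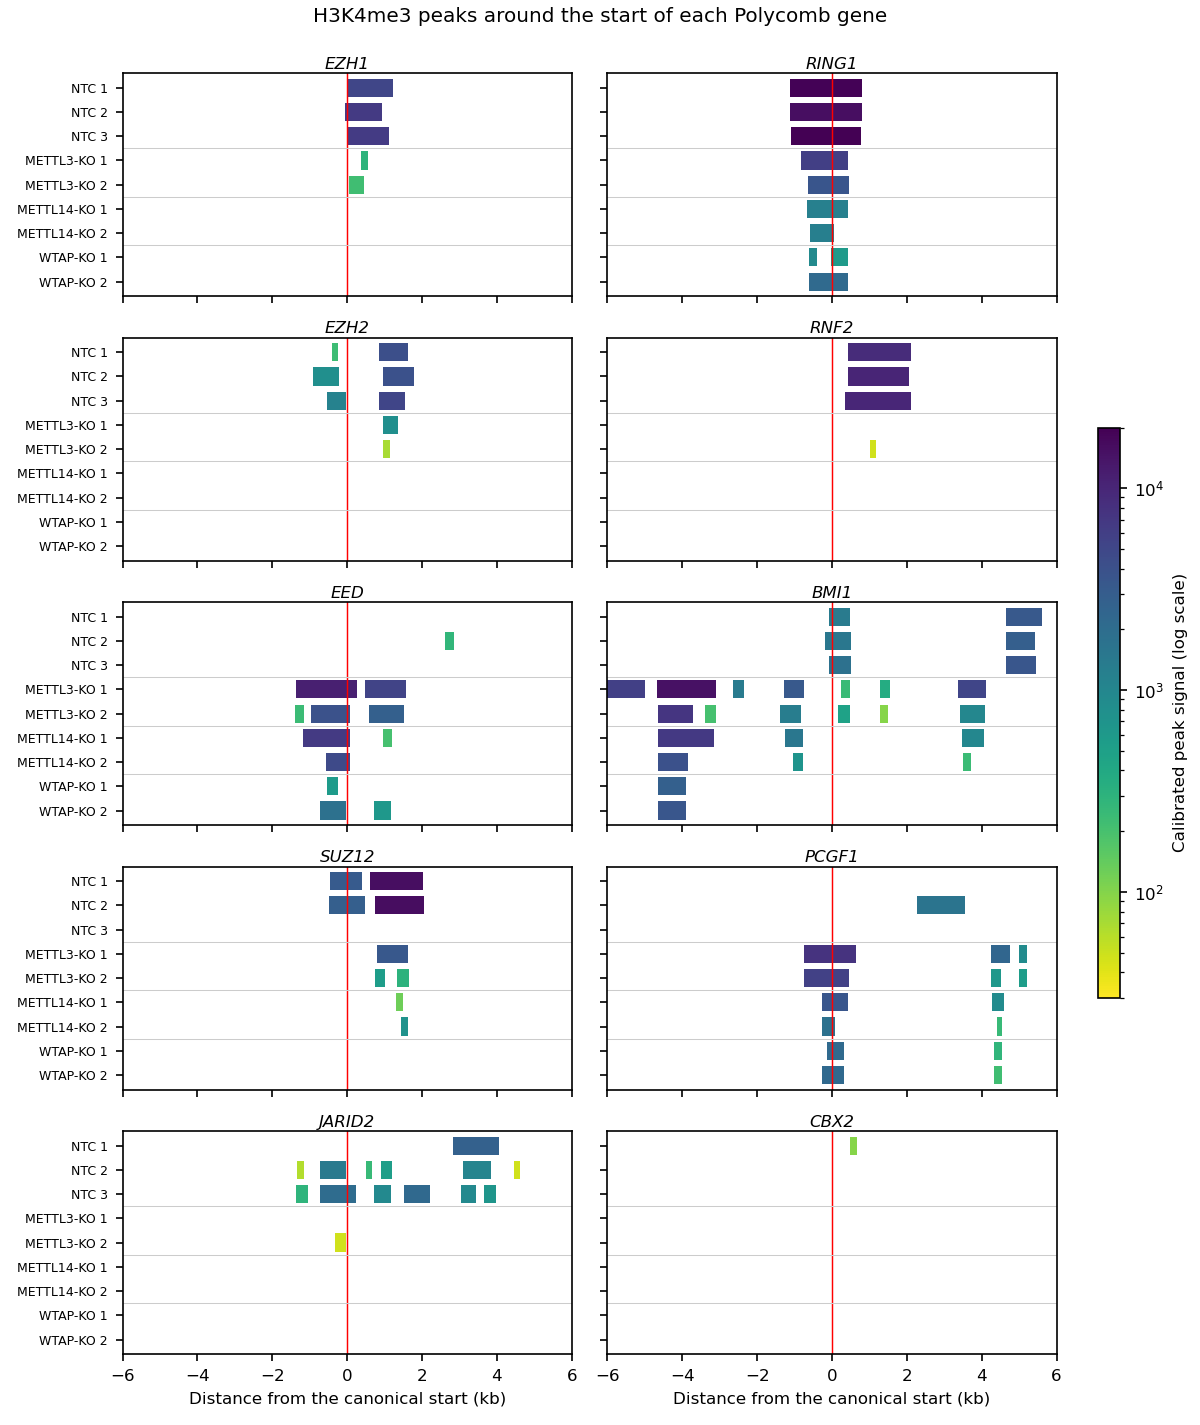
H3K4me3 peaks of each library (rows) by distance from the canonical start in kb, negative upstream, with the start as a red line and peak signal as colour (log scale); peaks within 5 kb of any annotated start are drawn, cut at 6 kb. RING1 peaks are narrower in KO, as are the peaks of the whole lists by median width. PCGF1 and EED have peaks at the start in all 6 KO libraries but not in NTC. The main EED peaks of NTC lie far upstream, outside the panel.

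Of the PRC1 catalytic pair, RING1 kept a peak of lower signal in every KO library, and RNF2 had almost no KO peak. RING1 (chr6, plus strand, 33176277) had 19392, 15898 and 20217 in NTC, 5956 and 3628 in METTL3-KO, 1215 and 1245 in METTL14-KO, and 909 and 2185 in WTAP-KO. The KO groups had 25.9%, 6.65% and 8.36% of the NTC mean, and no KO library reached the NTC range. RING1 changed by -3.17 ± 0.32 (adjusted p = 1.0e-04), and the exact two-sided permutation test of 6 KO against 3 NTC libraries gave p = 0.0238, the smallest that its 84 splits allow. EZH1, EZH2, JARID2, RNF2 and PCGF1 reached the same value. It is reached when the KO and NTC libraries do not overlap, and 68.3% of all genes tested had every KO library below every NTC library. RING1 belongs to the 5.52% of genes tested that had a promoter peak in all 9 libraries. Relative to these 665 genes, on which the libraries were centred, its change was -0.58 ± 0.26 and was no longer called (adjusted p = 0.0793).

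Median widths of all listed peaks were 663 bp in NTC, 437 in METTL3-KO, 346 in METTL14-KO and 344 in WTAP-KO. The RING1 peak narrowed as well. It covered 1855 to 1900 bp in NTC, from position -1111 or -1093 to 788 or 761 relative to the start, and 1081 to 1273 bp in METTL3-KO. METTL14-KO libraries had 1085 and 651 bp, and WTAP-KO replicate 2 had 1037 bp. In WTAP-KO replicate 1 the stretch was broken into peaks of 219 and 446 bp, 372 bp apart, with the outer limits of 33175661 and 33176697 that it had in WTAP-KO replicate 2. All 9 libraries' peaks lay within 1 kb of the starts of the non-coding genes ENSG00000288751, 27 bp away, and MIR219-1.

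RNF2 (chr1, plus strand, 185014690) had 8897, 10137 and 10047 in NTC, with little spread. Its only KO peak, in METTL3-KO replicate 2, was 152 bp wide and had a signal of 48.1. The groups were thus far apart, and RNF2 had the lowest change of the 9 genes, -8.10 ± 0.30 (adjusted p = 4.8e-07). The NTC peaks, 1628 to 1754 bp wide, began 349 to 427 bp downstream of the canonical start and covered the alternative start at 185015228. In the KO libraries other than METTL3-KO replicate 2 the nearest peak of any kind was at least 71702 bp from the canonical start.

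BMI1 (chr10, plus strand, 22610028) had 3315, 2882 and 3510 in NTC, 5226 and 1309 in METTL3-KO, 1514 and 684 in METTL14-KO and no peak in WTAP-KO. METTL3-KO lay on both sides of the NTC range and METTL14-KO below it. The change was -2.89 ± 0.51 over all KO groups (adjusted p = 0.00168), -0.29 ± 0.66 in METTL3-KO (0.704), -1.63 ± 0.66 in METTL14-KO (0.0606) and -6.76 ± 0.66 in WTAP-KO (8.9e-05). The peaks were again not the same ones. All 3 NTC libraries had a peak of 1386 to 1798 over the canonical start and one of 2882 to 3510 at exon 2, whereas the value of METTL3-KO replicate 1 came from a peak 456 bp before an internal start at 22614586, and those of METTL3-KO replicate 2 and METTL14-KO from peaks 778 to 838 bp before the canonical start. Counting only peaks that cover a start, BMI1 had 242 and 476 in METTL3-KO and none in the other 4 KO libraries, all below NTC.

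Within 5 kb of a BMI1 start the order turned round. All 6 KO libraries had a peak 3093 to 3895 bp upstream, of 15124 and 7251 in METTL3-KO, 6746 and 3990 in METTL14-KO and 2812 and 3479 in WTAP-KO, and no NTC library did. The WTAP-KO values overlapped those of NTC. With that window BMI1 changed by 0.78 ± 0.30 (adjusted p = 0.0458). These peaks begin just after the first starts of COMMD3 and of the readthrough gene COMMD3-BMI1, at 22605315 and 22605317, so that they lie at the promoter of the neighbour. In METTL3-KO replicate 1 they joined 2 others into a stretch of 3864 bp with gaps of at least 305 bp, wider than any single peak listed.

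PCGF1 (chr2, minus strand, 74734822) was the single gene of the set called higher. It had 0, 1647 and 0 in NTC, 7803 and 5742 in METTL3-KO, 3513 and 1790 in METTL14-KO, and 2179 and 2241 in WTAP-KO, where 0 stands for no peak. All 6 KO libraries had a peak over the canonical start, of 352 to 1398 bp, and no NTC library had one within 1 kb of it. The NTC replicate 2 value came from a peak 189 bp from the farthest downstream start, 74732737, in the last exons of the canonical transcript, where it also lay within 1 kb of starts of LBX2 and LBX2-AS1. The change was 4.87 ± 1.38 (adjusted p = 0.0149). It was not called without NTC replicate 1 (3.91, adjusted p = 0.0606) or NTC replicate 3 (3.91, 0.0607). At the canonical start alone it was 6.81 ± 0.29 (adjusted p = 1.1e-06). In NTC replicates 1 and 3 the nearest listed peak was 24084 and 23928 bp away. The KO peaks at the start were widest in METTL3-KO, at 1398 and 1212 bp, and the part of the lists' limit of 2000 bp in the missing NTC peaks was not tested.

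CBX2 (chr17, plus strand, 77751947) had a peak of 98.7 in NTC replicate 1, 210 bp wide and 469 to 678 bp downstream of the start, and none in the other 8 libraries within 5 kb. In NTC replicates 2 and 3 the nearest peak, at 18293 and 18296 bp, was that of CBX8, the neighbouring gene of the same family, which had 3652, 4027 and 4316 in NTC. A missing peak shows that no stretch passed the limits of the list, not that the mark was absent.

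METTL3-KO differed from the other knockouts at some of these genes. Set against METTL14-KO and WTAP-KO together, 4 of the 9 genes were called higher in METTL3-KO (EZH1, EZH2, BMI1 and RING1) and none lower, beside 29.5% of all genes called higher. The differences were 3.26 ± 0.21 for EZH1 (adjusted p = 7.9e-05), 3.25 ± 0.77 for EZH2 (0.0230), 3.90 ± 0.63 for BMI1 (0.00453) and 1.80 ± 0.40 for RING1 (0.0171). For EZH1 and EZH2 this is the difference between weak METTL3-KO peaks and no peak. The EZH2 call was lost without WTAP-KO replicate 1 (adjusted p = 0.0581) or 2 (0.0540), and the RING1 call without METTL3-KO replicate 1 (1.44, adjusted p = 0.130) or after centring (0.19, 0.967). When peaks under the median signal of NTC peaks were dropped, all 4 calls were lost. SUZ12 was not called in the main fit (5.55 ± 2.65, adjusted p = 0.194), where the split NTC libraries enter the spread shared by all groups. It was called without NTC replicate 3 (5.55, adjusted p = 0.00506) and with only the KO groups fitted (5.55 ± 0.80, 0.00485). The median difference of the 9 genes was 1.80 and that of all genes 1.71.

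A wider list of 41 genes of the Polycomb pathway showed the same kinds of outcome. At NTC promoters 29 of them were marked in all 3 libraries, and 32, 31 and 30 were marked per NTC library, against 21 and 16 in METTL3-KO, 14 and 8 in METTL14-KO, and 8 and 8 in WTAP-KO. Of the 39 that could be tested, 29 were called lower and 7 higher over all KO groups, with a median change of -5.33, beside the 73.0% and 14.3% of all genes and their median of -5.30. By class, the numbers called lower and higher were 5 and 2 of 8 PRC2 genes, 8 and 2 of 10 canonical PRC1 genes, 10 and 2 of 14 variant PRC1 genes, 4 and 1 of 5 genes of the H2A deubiquitinase PR-DUB, and 2 and 0 of 2 H3K27 demethylases.

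ASXL1, a PR-DUB subunit that is often mutated in myeloid disease, was the single gene of the wider list marked in all 9 libraries. It fell from 27065 ± 2701 in NTC (SD, n = 3) to 1158 to 7282 in KO (-3.20 ± 0.21, adjusted p = 9.0e-06). Of the wider list, 16 genes were marked by every NTC library and had no peak in any KO library. The share of all genes with that pattern was not counted. For the broader pattern, every KO library below every NTC library, it was 68.3%. Those with the highest NTC signal were USP7, a deubiquitinase that joins variant PRC1 (9034 ± 781), SCMH1 (7663 ± 555), the histone-binding subunit RBBP7 (4117 ± 515), L3MBTL2 (3824 ± 735) and YAF2 (3430 ± 901). They were picked for this pattern, which fixes their direction.

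Another 7 genes had no NTC peak and a peak in at least 2 KO libraries. RBBP4, the close relative of RBBP7 in PRC2, had 507 to 5438 in KO, PCGF2, the nearest relative of BMI1, 777 to 7080, the polyhomeotic gene PHC3 260 to 5827, and DCAF7 507 to 8202, each with a peak in all 6 KO libraries. MTF2 and ASXL2 had peaks in 5 KO libraries each. MGA, the last of the 7, had peaks of 247 to 842 in 3 KO libraries, none of them WTAP-KO. These genes were picked for having KO peaks and no NTC peak, so their direction follows from the choice and no test of it is given. RBBP4 was thus marked in KO alone and RBBP7 in NTC alone, and PCGF2 was marked in KO alone, whereas PCGF3 and PCGF6 were marked in NTC alone. In all, 4.88% of the genes tested had a peak in every KO library but none in NTC.

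**Figure D4:**
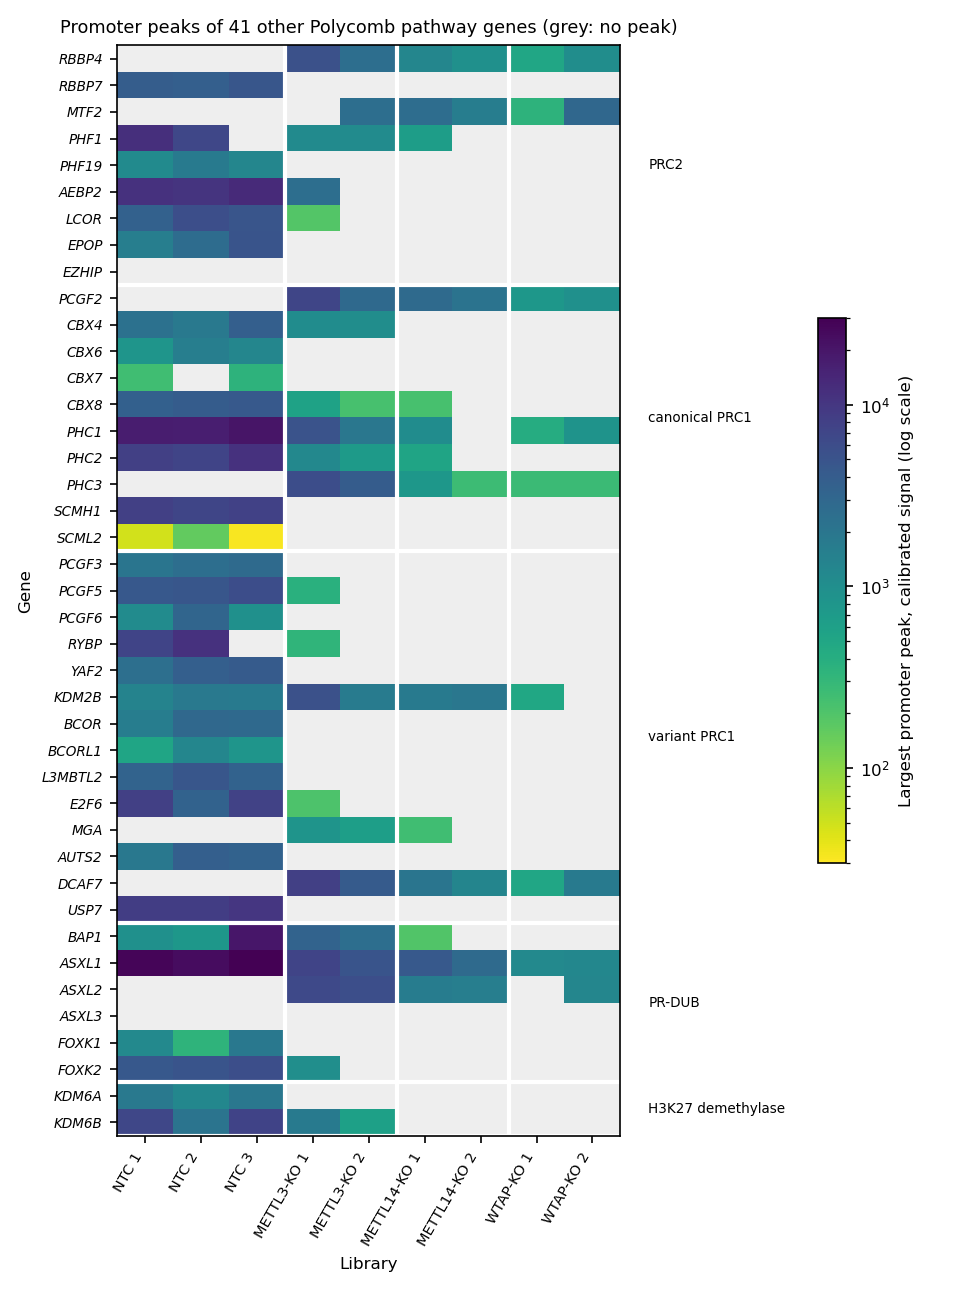
Largest H3K4me3 promoter peak within 1 kb of any start (colour, calibrated signal on a log scale) of 41 other Polycomb pathway genes in the 9 libraries, by class, with grey for no peak. ASXL1 is marked in all 9 libraries, and RBBP4, PCGF2, PHC3 and DCAF7 are marked in all 6 KO libraries but not in NTC.

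For each gene marked in at least 3 libraries, the protein-coding genes of the most similar pattern were sought by the Euclidean distance over the 9 libraries on the log2(signal + 30.1) scale. The nearest were SAR1A (0.39) and NDUFA6 (0.48) for EZH1, SNRPE (0.49) and KMO (0.63) for EZH2, PRKAR2B (0.31) and ATP13A4 (0.49) for SUZ12, and TMEM108 (0.37) for RNF2. MFN2 (0.62) and ATP6V1B2 (0.72) were nearest to JARID2, and RPF1 (0.78) and TRIT1 (0.83) to RING1. The patterns of EED, BMI1 and PCGF1 had no gene as close: RDH10 and RPL7 lay at 1.52 from EED, COPS7B and PDE6D at 1.11 from BMI1, and PRADC1 and CCT7 at 1.31 from PCGF1.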

How the data were processed

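H3K4me3 CUT&RUN libraries from HEL cells were grouped by the sample labels. Per the methods and the submitters' processing notes, the authors sequenced paired ends, aligned them with Bowtie to hg19 and to the yeast genome sacCer3 of a spike-in, calibrated the libraries with that spike-in, dropped duplicate reads with Picard and called peaks per library, with no pooling. The deposited lists give chromosome, start, end and a calibrated signal per peak. Peak starts were assumed to be counted from 0 and are printed from 1.

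Transcription starts came from GENCODE lifted to hg19. Per gene and library the largest peak signal within 1 kb of any start was taken, or 0. In R 4.3.3, limma 3.58.1 with an intensity trend was fitted to log2(signal + 30.1), the smallest peak signal being 30.1, over genes with a peak in at least 2 of 9 libraries, with 4 groups in 1 model and Benjamini-Hochberg adjustment at 0.05 over all genes. The fit was tested on simulated, normally distributed values. In these no libraries shared the value of a missing peak, so the test does not cover genes with such libraries. Single genes were also compared by exact permutation. Sequences were read with pysam 0.24.0, and tables and figures made with Python 3.11.15, pandas 2.3.3, numpy 2.4.6 and matplotlib 3.10.9. No count test was used, since the unit is a signal, and depth is unknown. The precision is limited by the number of libraries.

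The members and lists were chosen with earlier results of these data known. Named were all 10 genes; of the wider list up to 5 marked in all libraries, up to 5 in NTC alone by NTC signal and up to 5 in KO alone by the number of libraries (MTF2 and ASXL2 tied, and both are named); up to 2 genes of nearest pattern; and genes sharing a start or peak with a member. PCGF3, PCGF6, MGA and CBX8 were named after their values were seen. Alternatives were a 5 kb window, summed peaks, peaks over a start, the pseudocount (0.1 and 10 times), the gene filter, centring, division by the step, a peak threshold, the groups fitted, the replicate block and leaving out each library. The canonical start alone was added after seeing the data. A marker gene, a gene of nearest pattern and a promoter stretch are not reported here.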

Additional observations from a re-analysis of the deposited data

Results flagged for a closer look

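The difference between METTL3-KO and the other knockouts (METTL14-KO and WTAP-KO together) was itself tested and passed at 4 of the 9 genes, with log2 differences of 3.26 for EZH1, 3.25 for EZH2, 1.80 for RING1 and 3.90 for BMI1 (limma, adjusted over all genes). In each of them the METTL3-KO libraries had the higher mean signal. Both METTL3-KO libraries exceeded all 4 others at EZH1, EZH2 and RING1. How many of all genes tested showed that order was not counted. At BMI1, METTL3-KO replicate 2 with 1309 was below METTL14-KO replicate 1 with 1514. None of the 4 was called when peaks under the median signal of NTC peaks were dropped: EZH1 and EZH2 were then at 0.00, RING1 at 5.73 (adjusted p = 0.10) and BMI1 at 3.72 (0.389). Of all genes tested, 29.5% were called higher in the same comparison.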

How the results depend on the processing

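Under 22 alternatives each, the number of genes called stayed within 1.5 times of the reported one for each KO comparison with NTC: 6 to 8 over all KO groups, 4 to 7 for METTL3-KO, 5 to 7 for METTL14-KO and 5 to 8 for WTAP-KO. These are totals of both directions: the calls split into 6 lower and 1 higher over all KO groups became 5 and 2 with the 5 kb window, peaks over a start or centring, and 6 and 0 or 7 and 0 without NTC replicate 1 or 3. At the canonical start 2 genes were called higher in METTL14-KO and 2 in WTAP-KO, in place of 0. Leaving out each library gave 6 to 8, 5 to 6, 5 to 6 and 7 to 8, and 3 to 5 for METTL3-KO against the other knockouts. That last count was 6 of the 7 genes then tested when only the groups compared were fitted, with 3869 of 6429 genes called higher. It was 1 (EED) in place of 4 when peaks under the median signal of NTC peaks (2095) were dropped. That threshold lowered the mean number of genes with a promoter peak per library from 8 to 4 in METTL3-KO, from 4 to 1.5 in METTL14-KO and from 3 to 1.5 in WTAP-KO, and counting only peaks over a start lowered it to 5 in NTC and 4 in METTL3-KO. Leaving out a library gave means of 8 to 9 in NTC and 7 to 9 in METTL3-KO. EED over all KO groups turned from -1.06 to 5.10 with peaks over a start, 6.82 at the canonical start, 1.54 after centring and 0.32 after division by the step, and BMI1 turned to 0.78 with the 5 kb window. For METTL3-KO against the other knockouts, EED was -0.14 and PCGF1 -0.12 after centring. The cause was not tested. Centring moved the median change of all genes over all KO groups from -5.30 to -4.86. EZH1, EZH2, JARID2 and RNF2 kept their direction and call over all KO groups under every alternative that could be fitted. For METTL3-KO against the other knockouts, EZH1 was 0.00 with peaks over a start, EZH2 was lost with 10 times the pseudocount (1.08, adjusted p = 0.0932) and RING1 after division by the step (0.98, 0.405). RNF2 was called there without METTL3-KO replicate 1 (1.38, 0.00198), where the lone METTL3-KO library, with a peak of 48.1, is assumed to vary like the other groups. Same-numbered libraries shared only a number: the mean correlation of their deviations over 12 pairs was 0.0058 (from -0.058 to 0.095). With the replicate block 7 genes were called over all KO groups, SUZ12 with them (-7.18, adjusted p = 9.4e-04) and PCGF1 not (3.91, 0.0861). Only NTC had a replicate 3, so the block fits that library exactly. The changes over all KO groups thus equal those without NTC replicate 3 (SUZ12 -7.18, PCGF1 3.91), and the block is no separate check of them. For METTL3-KO against the other knockouts the block ended the calls of EZH2 (still 3.25, 0.0658) and RING1 (still 1.80, 0.0725) and added SUZ12 (5.55, 0.0112). Depth is unknown, and a missing peak shows only that no stretch passed the height and width limits of its list.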
